A study of Homo sapiens with 12 samples.

Results

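Gene desert regions are here the 5-hydroxymethylcytosine (5hmC) and 5-methylcytosine (5mC) enriched regions of HL-60 cells that lay on chromosomes 1 to 22, more than 200000 bases from the nearest gene and more than 2000 bases from the nearest CpG island, by the distances that the authors deposited with each region. The rule took 28270 of the 327949 listed 5hmC regions (8.62%) and 5057 of the 65535 listed 5mC regions (7.72%). No read count entered the rule. One 5hmC member had an empty count cell, 28264 of the other 28269 passed the filter on low counts, and all 5057 5mC members passed it.

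HL-60 cells are an established line from a human promyelocytic leukemia, and dimethyl sulfoxide (DMSO) makes them mature in the direction of neutrophils. The differentiated cells had received 1.5% DMSO (211 mM) for 7 days and were sorted as viable (SYTOX Blue-) and CD11b+, and the undifferentiated cells had no DMSO and were sorted as SYTOX Blue- and CD11b-. Each state had 3 biological replicates, and the DNA of each replicate was split between an antibody against 5mC (MeDIP) and one against 5hmC (hMeDIP), which gave 12 libraries. The states are therefore sorted fractions of 1 line, no RNA was measured that could check the cell type, and no input library was analysed here.

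Gene deserts are long stretches of chromosome without annotated genes; some hold distant enhancers of developmental genes, and others hold few known elements and replicate late. 5mC is the common mark of CpG sites outside islands, and in many cancers large gene-poor domains carry less of it. TET enzymes oxidise 5mC to 5hmC, which in most tissues is concentrated at enhancers and in the bodies of active genes. Antibody capture reports how much marked DNA was pulled down at a locus, so it also follows CpG density and the number of copies of that locus.

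The listed counts per library ranged from 13010267 to 32495733 in differentiated and from 15688562 to 33693880 in undifferentiated 5hmC libraries. They ranged from 7940755 to 9670011 in differentiated and from 6076100 to 6851769 in undifferentiated 5mC libraries. The 5mC table held only the most significant regions (largest p-value 0.0165 in the authors' deposited table), so every 5mC share below is a share of a list that favours regions differing between the states. Regions were fitted with edgeR's quasi-likelihood test over the whole table of each mark, and "higher" and "lower" mean a Benjamini-Hochberg adjusted p under 0.05 in differentiated over undifferentiated cells. Levels are in CPM, which here are reads per 1000000 listed reads of a library after adjustment by the trimmed mean of M-values (TMM). Coordinates are those of GRCh37 (hg19), counted from 1.

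The desert regions were small and scattered. The median width was 600 bases for either mark, with a range of 200 to 134800 bases for 5hmC and 200 to 46000 bases for 5mC. Members covered 19.7 Mb for 5hmC, 7.32% of the length covered by all listed regions, and 4.79 Mb for 5mC, 6.72% of it. The median distance to the nearest gene was 376628 bases for 5hmC and 374590 bases for 5mC, and 1964 and 338 members lay more than 1 Mb from one. Neighbouring members started a median of 9600 bases apart for 5hmC and 51200 bases apart for 5mC. The nearest genes numbered 1361 for 5hmC and 1047 for 5mC, and a nearest gene is used below only as a landmark.

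The level per length in deserts lay close to, and slightly above, that of regions nearer to genes, a description without a test. The median level was 2.70 CPM per kb for 5hmC in deserts, against 2.58 in regions 5 to 200 kb from a gene and 2.52 in regions inside genes, all over 2 kb from a CpG island. The corresponding 5mC medians were 7.52, 7.14 and 7.15 CPM per kb. Per region, without regard to width, deserts were lower instead. Their median was 1.47 CPM for 5hmC, against 1.62 and 1.60 in the other classes, and 4.94 CPM for 5mC, against 5.38 and 5.47. The median mean count of a member over the 6 libraries was 33.0 for 5hmC and 38.2 for 5mC, so most single members rested on few reads per library.

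Gene deserts took a larger share of the reads in differentiated than in undifferentiated cells, for both marks. Desert regions held 11.5%, 12.2% and 11.2% of the listed 5hmC counts in the differentiated libraries and 9.59%, 9.67% and 9.77% in the undifferentiated libraries. The groups did not overlap (11.7% ± 0.505 against 9.68% ± 0.0901, SD, n = 3 each), and the difference of 1.99 percentage points had p = 0.10 in a two-sided exact permutation test, the smallest p that 3 against 3 can give. For 5mC, desert regions held 20.1%, 20.1% and 20.3% of the listed counts in the differentiated libraries and 17.3%, 17.2% and 17.0% in the undifferentiated libraries. These groups were also apart, by 2.98 points (exact permutation p = 0.10). The differentiated 5hmC library with the fewest counts was the one with the largest desert share, and the difference without it was 1.71 points.

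A few regions carried much of that share. The 10 members with most counts held 45.2%, 48.8% and 42.7% of the 5hmC desert counts in differentiated libraries and 37.2%, 37.1% and 38.4% in undifferentiated libraries. For 5mC they held 76.9% to 77.5% in differentiated and 74.1% to 74.4% in undifferentiated libraries. With the 1% of all listed regions that had the highest mean counts left out of every sum, the shares were 8.29% ± 0.202 in differentiated and 7.31% ± 0.0731 in undifferentiated cells for 5hmC, and 7.20% ± 0.0141 in differentiated and 5.98% ± 0.0329 in undifferentiated cells for 5mC (SD, n = 3 each). The 5hmC difference thus fell to 0.988 points and the 5mC difference to 1.22 points, both with groups that did not overlap (exact permutation p = 0.10 each).

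The same counts could be set against those of the 2 other classes within a library, which needs no scaling factor. Per count in regions 5 to 200 kb from a gene, and without the top 1%, deserts held 0.244 ± 0.00369 5hmC counts in differentiated and 0.219 ± 0.00167 in undifferentiated cells. The 5mC ratios were 0.228 ± 0.000566 in differentiated and 0.190 ± 0.00117 in undifferentiated cells. Against regions inside genes, the 5hmC ratios were 0.199 ± 0.00645 in differentiated and 0.169 ± 0.00199 in undifferentiated cells, and the 5mC ratios were 0.166 ± 0.000536 in differentiated and 0.133 ± 0.000787 in undifferentiated cells (SD, n = 3 each). In all 4 ratios every differentiated library lay above every undifferentiated one (exact permutation p = 0.10 each).

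**Figure D1:**
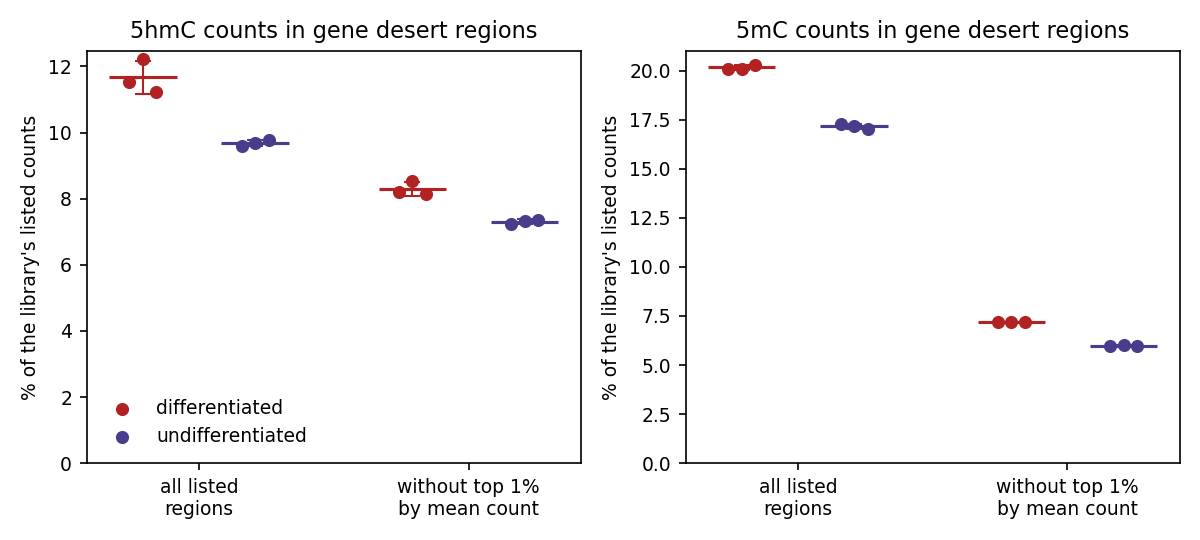
Percent of each library's listed counts that lay in gene desert regions, for 5hmC (left) and 5mC (right), over all listed regions and without the 1% of regions with the highest mean counts. Points are libraries, lines means and bars SD (n = 3 per state). Differentiated libraries lie above undifferentiated ones in each of the 4 pairs, and the 5mC share falls from about 20.2% to 7.20% in differentiated cells when the top regions are left out.

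Taken one by one, more desert regions were higher than lower in differentiated cells. Of the tested 5hmC members, 10719 (37.9%) were higher, 4301 (15.2%) lower and 13244 not called, with a median log2 fold change of 0.14. Over all tested 5hmC regions, 27.0% were higher and 23.3% lower, and the median was -0.04. Of the 5mC members, 2639 (52.2%) were higher, 998 (19.7%) lower and 1420 not called, with a median log2 fold change of 0.51. Over all listed 5mC regions that were tested, 35.7% were higher and 37.1% lower, and the median was 0.22. The 3 libraries of a state did not overlap those of the other in 15252 5hmC members (54.0%, against 52.2% of all tested 5hmC regions). For 5hmC, the members thus differed from all regions in direction more than in how often the states were apart. For 5mC the states did not overlap in 4329 members (85.6%, against 86.1%), in a list that favours regions differing between the states. The 5mC comparison therefore cannot be read in this way. DESeq2 called fewer members, 6601 higher and 810 lower for 5hmC and 260 higher and 49 lower for 5mC. Of all regions that DESeq2 called, 65.0% were higher for 5hmC and 57.3% for 5mC, against 89.1% and 84.1% of the called members. Leaving out 1 library left 1917 to 4713 lower 5hmC members, fewest without differentiated replicate 3, and 1655 to 1798 higher and 506 to 644 lower 5mC members.

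The split between higher and lower depended on the scaling. Among called 5hmC members, 71.4% were higher with TMM, 47.9% when libraries were scaled by their totals (7164 higher, 7800 lower) and 48.0% with TMM computed on the 25% of regions with the highest counts (7406 higher, 8033 lower). For 5mC the shares were 72.6%, 21.5% (392 higher, 1435 lower) and 18.4% (324 higher, 1434 lower). Scaling by totals moved the median of all 5hmC regions from -0.04 to -0.25 and that of all 5mC regions from 0.22 to -0.03. The members' medians moved with it, to -0.07 for 5hmC and 0.26 for 5mC, and stayed above those of all regions. A direction given below for a sum or a region is relative to the TMM scale unless a count ratio is named.

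The share of higher calls grew with the distance from genes up to 200 to 300 kb for both marks, and the limit of 200 kb marked no step. Among 5hmC regions outside genes and over 2 kb from a CpG island, 3645 of 18251 were higher and 29.8% lower within 5 kb of a gene. At 50 to 100 kb the shares were 33.2% and 19.2%, and at 200 to 300 kb they were 39.3% and 15.4%. Farther out the 5hmC share turned back, to 38.4% at 300 to 500 kb, 36.5% at 500 to 750 kb, 37.8% at 750 to 1000 kb, 32.4% at 1000 to 1500 kb and 33.0% beyond that, where the median log2 fold change was -0.13. The 5mC shares moved further: 25.9% were higher and 48.8% lower within 5 kb, 50.3% and 22.1% at 200 to 300 kb, and 55.8% and 14.5% at 1000 to 1500 kb. The 5hmC regions at 150 to 200 kb, outside the rule, were 38.1% higher and 15.3% lower, and those at 200 to 250 kb, inside it, were 39.4% higher and 15.5% lower. For 5mC these bands were 48.4% and 51.8% higher.

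**Figure D2:**
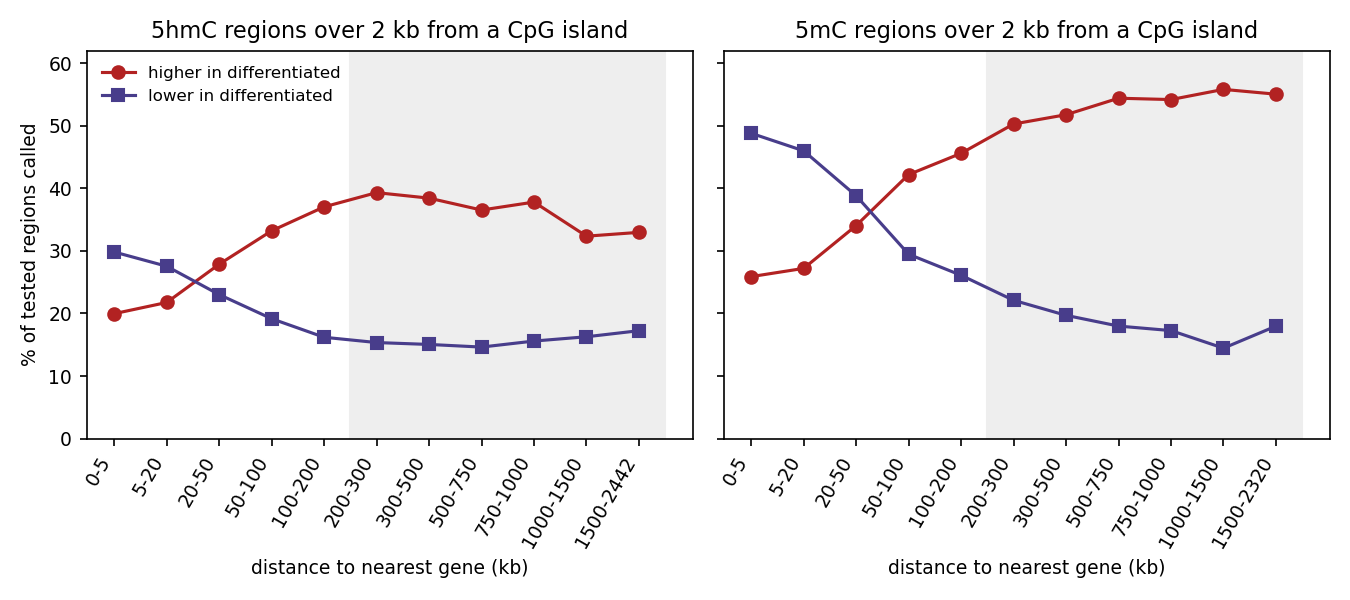
Percent of tested regions called higher (circles) and lower (squares) in differentiated cells by distance to the nearest gene in kb, for regions outside genes and over 2 kb from a CpG island; the shaded bins are gene desert regions. The 5hmC curves cross between the 5 to 20 and the 20 to 50 kb bins and the 5mC curves between the 20 to 50 and the 50 to 100 kb bins, and higher calls lead in every shaded bin.

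The regions on either side of the limit had ordinary values. Just inside it, at 200002 bases, a 5hmC region near ID4, an inhibitor of helix-loop-helix transcription factors (chr6:19637001-19637600), had 5.75, 7.25 and 5.76 CPM in differentiated and 3.50, 3.71 and 2.96 CPM in undifferentiated cells. Just outside, at 199994 bases, a 5hmC region near DTHD1 (chr4:36546401-36546800) had 1.35, 0.806 and 0.908 CPM in differentiated and 1.60, 1.54 and 1.93 CPM in undifferentiated cells. For 5mC, the first region inside, at 200005 bases near the ankyrin repeat gene ANKRD50 (chr4:125383001-125385200), had 10.7, 9.08 and 10.3 CPM in differentiated and 6.87, 4.51 and 5.77 CPM in undifferentiated cells. The first outside, at 199985 bases near the sorting nexin gene SNX18 (chr5:54042401-54043200), had 9.91, 9.76 and 10.3 CPM in differentiated and 7.14, 7.51 and 7.50 CPM in undifferentiated cells. The next ones, near TEX29 (inside) and SNX18 (outside) for 5hmC and near TEKT4P2 (inside) and CNOT2 (outside) for 5mC, had log2 fold changes of 0.30, 0.43, 0.38 and 0.32.

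Width separated the members more than distance did. Among 5hmC members up to 400 bases wide, 30.8% were higher and 23.7% lower, with a median log2 fold change of -0.24. At 600 bases 35.2% were higher, at over 600 and up to 1000 bases 44.4%, and at over 1000 and up to 2000 bases 56.3%. Of the 369 members over 2000 bases, 81.3% were higher and 0.542% lower, and their median was 0.62. The 5mC shares ran the same course, with 34.2% higher and 36.9% lower up to 400 bases and 90.1% higher and 3.31% lower over 2000 bases. The 5mC medians did not: the log2 fold change was -0.52 up to 400 bases, 0.55 at 600 bases and 0.44 over 2000 bases. These are medians of regions listed for their p-value, so they do not describe 5mC regions of each width at large.

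Wide regions elsewhere did this less. Over 2000 bases, 42.8% of the 5hmC regions 5 to 200 kb from a gene and 28.2% of those inside genes were higher. The 5mC shares in these classes were 57.2% and 48.9%. In each of the 5 width classes of either mark the desert share was above both others. These classes were compared as counts, with no test of the difference.

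**Figure D3:**
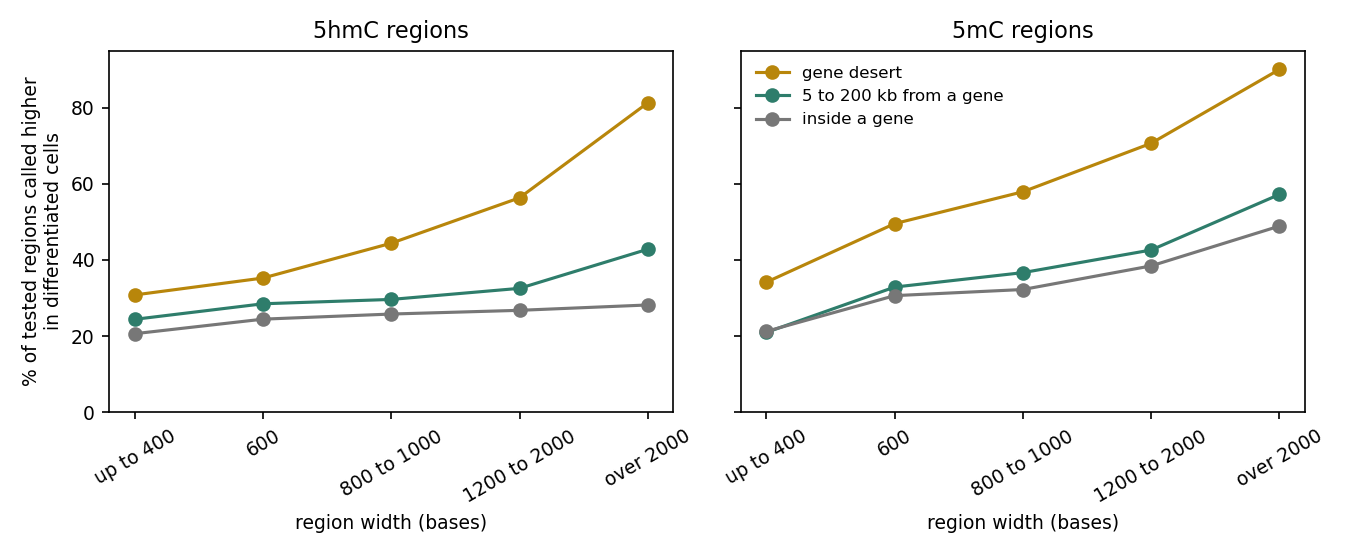
Percent of tested regions called higher in differentiated cells by region width in bases, for gene desert regions, regions 5 to 200 kb from a gene and regions inside genes, all over 2 kb from a CpG island. The desert line is the top one in each panel and rises to 81.3% (5hmC) and 90.1% (5mC) for regions over 2000 bases.

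The count level did not order the 5hmC members as width did. Of the 1210 tested members with up to 20 counts, 46.4% were higher and 30.3% lower, against 27.9% and 46.0% of all 5hmC regions at that level. Among 5hmC members with a mean count of over 20 and up to 50, which were 74.5% of all, 30.8% were higher and 16.4% lower, against 22.3% and 24.3% of all 5hmC regions at that level. At over 100 and up to 200 counts, 84.0% of 1136 members were higher and 2.82% lower, against 48.7% and 12.0% of all regions. Above 1000 counts 61.2% of 49 members were higher, against 35.5% of all regions. For 5mC, 69.2% of the 279 members with up to 20 counts were lower, against 75.6% of all listed regions at that level, and 88.4% of the 328 members with over 100 and up to 200 counts were higher, against 60.3%.

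Desert counts summed per chromosome rose on nearly every autosome. For 5hmC all 22 desert sums were higher in differentiated cells (log2 fold change 0.25 to 0.80), and for 5mC 21 of 22 were, chromosome 1 being the exception (log2 fold change 0.11 ± 0.05 SE, adjusted p = 0.0652). Of all chromosome sums in the same edgeR fits, deserts and other regions together, 80.9% were higher for 5hmC and 85.1% for 5mC. With library totals 14 of the 22 5hmC sums and 17 of the 22 5mC sums were called higher, and 1 5mC sum was called lower. With TMM on the 25% of regions with the highest counts, 7 of the 5hmC sums were called higher, and 15 of the 5mC sums were called higher and 2 lower.

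The size of the rise differed between chromosomes. Chromosome 10 had desert sums of 24102, 29571 and 21536 CPM of 5hmC in differentiated and 13972, 14265 and 15064 CPM in undifferentiated libraries. The libraries of the states were far apart there (log2 fold change 0.80 ± 0.11 SE, edgeR adjusted p = 0.00159), and the strongest single region held 81.5% of that sum. The sums of chromosomes 17 (0.65 ± 0.14), 2 (0.60 ± 0.10) and 4 (0.59 ± 0.09) rested likewise on 1 region, with 81.9%, 58.2% and 60.7% of the counts. Taken alone, the strongest regions of chromosomes 10, 17, 2 and 4 were not called by edgeR (adjusted p = 0.159, 0.0882, 0.153 and 0.162). Chromosome 19 differed from these: its 142 desert members held 538.6, 626.3 and 496.0 CPM of 5hmC in differentiated and 371.6, 370.8 and 383.6 CPM in undifferentiated libraries (0.56 ± 0.09, adjusted p = 0.00159), and its strongest region held 12.1%. Its other regions, summed, had a log2 fold change of 0.06 ± 0.04 (adjusted p = 0.243).

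By member counts chromosome 19 was also at the top. Of its 142 5hmC members, 80 (56.3%) were higher and 13 lower, and of its 36 5mC members 30 (83.3%) were higher and none lower. Chromosomes 22 (49.5% of 295) and 18 (42.8% of 1478) came next for 5hmC, and chromosome 21 had the smallest share, 34.1% of 381. Most members lay on long chromosomes with many deserts: chromosome 2 held 3218 5hmC members and chromosome 4 3016, where deserts made up 17.6% of the listed 5hmC regions, against 1.08% on gene-rich chromosome 19.

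**Figure D4:**
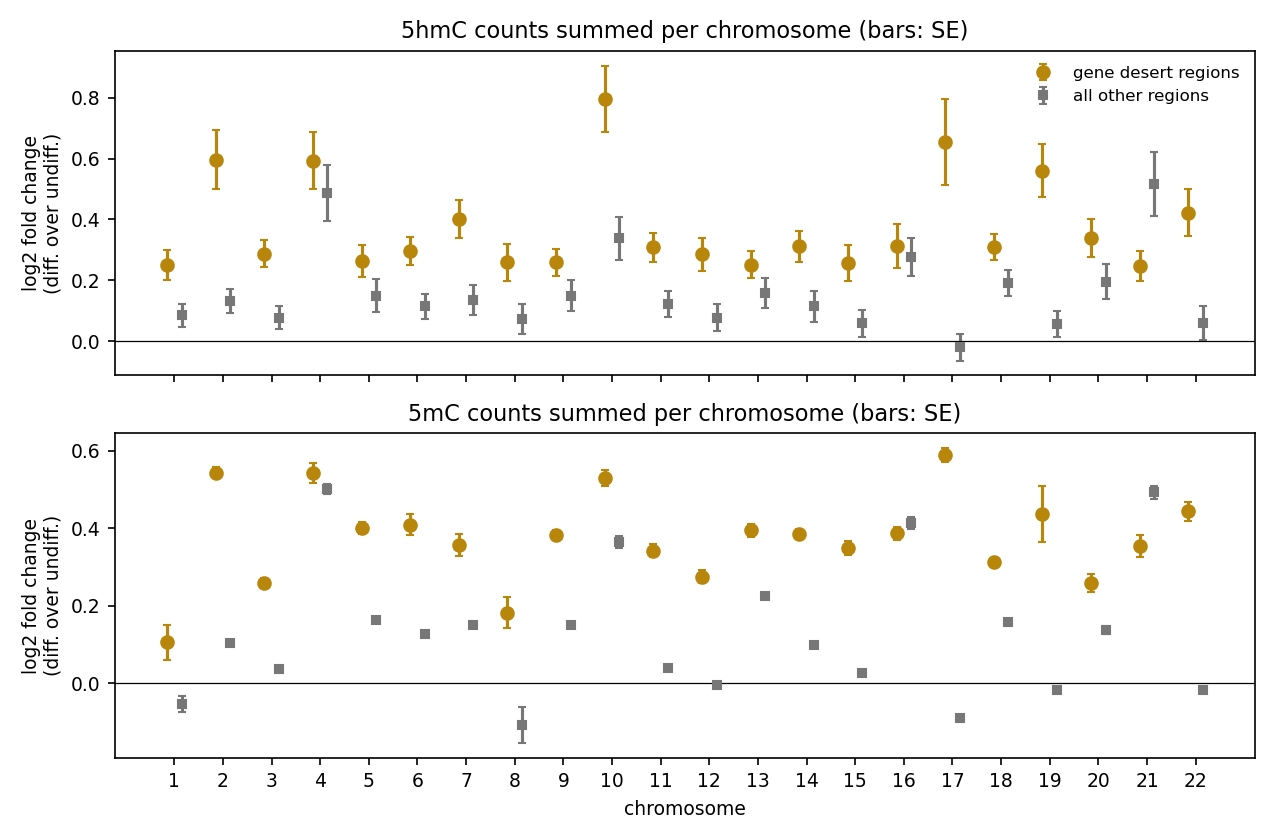
Log2 fold change, differentiated over undifferentiated, of the TMM-scaled counts summed per chromosome over gene desert regions (circles) and over all other listed regions (squares); bars are SE of the edgeR fit (n = 3 libraries per state). For 5hmC the desert sums lie between 0.25 and 0.80, highest on chromosomes 10 and 17, and for 5mC the desert sum of chromosome 1 is closest to 0.

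Counts were also summed in 1 Mb windows, since neighbouring members may move together. Of 1104 tested desert windows of 5hmC, 707 (64.0%) were higher and 37 (3.35%) lower, while over all window sums of the fit, deserts and other regions together, 60.1% were higher and 9.31% lower. Of 939 desert windows of 5mC, 630 (67.1%) were higher and 135 (14.4%) lower, against 57.4% and 23.1% of all window sums. Library totals gave 274 higher and 192 lower for 5hmC and 306 higher and 208 lower for 5mC. Without differentiated replicate 1 or 3, or undifferentiated replicate 1 or 3, the lower 5hmC windows numbered 22, 16, 22 and 20.

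On the TMM scale, rises were spread over windows rather than gathered in a few. In the 805 windows with at least 10 tested 5hmC members, the share of members called higher had a median of 37.5% and quartiles of 30.2% and 46.2%, and more members were higher than lower in 721 of them. In 58 windows more were lower than higher. In the 144 windows with at least 10 5mC members the median was 58.3% with quartiles of 45.5% and 69.2%, and 131 windows had more higher than lower members. Over all tested members 37.9% were higher for 5hmC and 52.2% for 5mC. Regions outside deserts were not counted by window in this way.

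The 4 5hmC windows with the largest rise lay beside centromeres, which is background knowledge and not a column of the table. In the window at 42 to 43 Mb of chromosome 10, near LOC441666, desert 5hmC was 21778, 27077 and 19325 CPM in differentiated and 12132, 12420 and 13139 CPM in undifferentiated libraries (log2 fold change 0.86 ± 0.22 SE, adjusted p = 0.0105). The window at 61 to 62 Mb of chromosome 7 (zinc finger pseudogene ZNF733P) had 896.3, 1113 and 842.0 CPM in differentiated and 551.0, 557.1 and 535.4 CPM in undifferentiated libraries, and 14 of its 18 members were higher and none lower (0.79 ± 0.09, adjusted p = 0.000339). Those at 89 to 90 Mb of chromosome 2 (0.78 ± 0.19) and 49 to 50 Mb of chromosome 4 (0.75 ± 0.19) completed the set, and in the chromosome 2 window 10 members were higher and 7 lower. The strongest members of the chromosome 10, 2 and 4 windows were not called on their own by edgeR, as given below.

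The largest 5hmC falls among windows were shallow. In the window at 98 to 99 Mb of chromosome 5, near LOC100289230, the sum was 15.2, 15.4 and 13.7 CPM in differentiated and 16.3, 16.8 and 19.7 CPM in undifferentiated libraries (log2 fold change -0.26 ± 0.09 SE, adjusted p = 0.0363). The window at 4 to 5 Mb of chromosome 1 held 91.2, 85.3 and 85.1 CPM in differentiated and 104.0, 101.2 and 103.8 CPM in undifferentiated libraries (-0.24 ± 0.04, adjusted p = 0.000987), although 5 of its 11 members were higher and 2 lower. The other regions of that window had a log2 fold change of 0.33 (adjusted p = 0.00829). The window near the nucleolar protein gene KRR1, at 76 to 77 Mb of chromosome 12, fell as well (-0.23 ± 0.07, adjusted p = 0.0222).

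Listed 5mC windows were named from 3 members upward, against 10 for 5hmC, so the extremes of the marks are not compared. Near LRFN5, a synaptic adhesion molecule, the window at 41 to 42 Mb of chromosome 14 had 29.5, 29.0 and 31.3 CPM in differentiated and 15.1, 15.5 and 17.6 CPM in undifferentiated libraries (log2 fold change 0.90 ± 0.10 SE, adjusted p = 1.52e-10). The window near DBC1, a brain-expressed gene at 121 to 122 Mb of chromosome 9, had 35.3, 29.8 and 36.0 CPM in differentiated and 21.4, 17.9 and 16.9 CPM in undifferentiated libraries (0.85 ± 0.10, adjusted p = 8.01e-10). The adjoining window at 120 to 121 Mb, near TLR4, the receptor for bacterial lipopolysaccharide, went the other way, with 9.91, 10.0 and 11.4 CPM in differentiated and 18.3, 20.1 and 19.2 CPM in undifferentiated libraries (-0.87 ± 0.12, adjusted p = 2.47e-08). Rises near MED13L, a Mediator subunit gene (116 to 117 Mb of chromosome 12, 0.78 ± 0.14), and LINC00588 (58 to 59 Mb of chromosome 8, 0.78 ± 0.11) were next in size. All 4 members of the TLR4 window were lower, and 3 of the 4 of the DBC1 window were higher.

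On the same chromosome, the window at 1 to 2 Mb near DMRT2, a transcription factor of sex and muscle development, had the largest 5mC fall. It held 6.98, 8.94 and 10.2 CPM in differentiated and 14.4, 17.1 and 17.7 CPM in undifferentiated libraries (log2 fold change -0.91 ± 0.14 SE, adjusted p = 2.06e-07), with all 4 members lower. Both chromosome 9 windows with a fall had other regions that rose slightly, by 0.23 near DMRT2 (adjusted p = 0.00622) and 0.18 near TLR4 (adjusted p = 0.0360). The windows near the myotrophin locus MTPN LUZP6 (135 to 136 Mb of chromosome 7, -0.84 ± 0.14) and C13orf45 (76 to 77 Mb of chromosome 13, -0.83 ± 0.14) fell as well. Such windows held 3 or 4 listed regions each.

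The windows richest in members were taken as well. The desert between STAG3L4 and AUTS2, a gene of neuronal development, on chromosome 7 had the most 5hmC members, 171 in the window at 67 to 68 Mb and 146 in the next. The first had 450.7, 526.5 and 424.1 CPM in differentiated and 362.0, 354.9 and 373.1 CPM in undifferentiated libraries (log2 fold change 0.36 ± 0.07 SE, adjusted p = 0.00336), with 65 of the 171 members higher and 34 lower, while 37.9% and 15.2% of all tested 5hmC members were. The window near MIAT, a long noncoding RNA gene, at 27 to 28 Mb of chromosome 22, had 124 members, 74 higher and 6 lower, and 582.1, 714.5 and 542.5 CPM in differentiated against 427.0, 425.6 and 457.6 CPM in undifferentiated libraries (0.49 ± 0.09, adjusted p = 0.00265). For 5mC, 2 neighbouring windows of chromosome 18 at 75 to 77 Mb, near the galanin receptor gene GALR1 and the transcription factor gene SALL3, held 48 and 42 members, of which 36 and 33 were higher. The pericentromeric window at 47 to 48 Mb of chromosome 8 held 43, of which 38 were higher and none lower.

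Long deserts named by their nearest gene differed in how far the balance leaned. Over all tested members 37.9% were higher and 15.2% lower for 5hmC, and 52.2% and 19.7% for 5mC. Over all tested regions the shares were 27.0% and 23.3% for 5hmC and 35.7% and 37.1% for 5mC. The teneurin gene TENM2 on chromosome 5 had the most 5hmC members, 176, of which 41 were higher and 35 lower, with a median log2 fold change of -0.15. Its 33 listed 5mC members were 20 higher and 5 lower. PCDH7, a protocadherin, had 175 5hmC members (62 higher, 24 lower) and 30 5mC members (15 higher, 5 lower). Its 5hmC shares, 35.4% higher and 13.7% lower, were close to those of all members. FRG1, near the end of the long arm of chromosome 4, had 34 listed 5mC members, 26 higher and 1 lower, and LINC00293 beside the chromosome 8 centromere had 50, 43 higher and none lower.

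Single members named for the largest rise or fall had to be called, with a mean of at least 1 CPM (5hmC) or 2 CPM (5mC). Their libraries also had to be without overlap between the states, so that their separation follows from the choice. The 5hmC members with the largest rise stood on few reads. The region near CHEK2P2, a pseudogene, at chr15:20100401-20100800 and 387 kb from it, had 1.69, 2.51 and 2.10 CPM in differentiated and 0.434, 0.386 and 0.423 CPM in undifferentiated libraries (log2 fold change 2.29 ± 0.28 SE, adjusted p = 5.04e-08), which were 30, 28 and 67 reads against 16, 8 and 7. The region 683 kb from NMBR, the neuromedin B receptor gene (chr6:141713801-141714200), had 2.65, 3.22 and 2.22 CPM in differentiated and 0.434, 0.723 and 0.604 CPM in undifferentiated libraries (2.20 ± 0.26, adjusted p = 1.93e-08). The region 904 kb from PCDH7 (chr4:29818001-29818400) had 3.10, 3.40 and 3.04 CPM in differentiated and 0.868, 0.772 and 0.785 CPM in undifferentiated libraries (1.93 ± 0.22, adjusted p = 8.47e-09). The region near LOC388942 (chr2:41819201-41819600) had a weak library, with 2.42, 0.627 and 1.97 CPM in differentiated and 0.434, 0.434 and 0.302 CPM in undifferentiated cells (2.16 ± 0.31).

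The remaining rises completed the 6 largest. They lay near HTR1B, a serotonin receptor gene (chr6:78466201-78466600, log2 fold change 1.91 ± 0.26 SE), and near the antisense gene JRKL-AS1 (chr11:96784801-96785600, 1.89 ± 0.26). Their differentiated libraries had 1.70 to 2.95 CPM and their undifferentiated libraries 0.482 to 0.664 CPM.

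Under this naming rule, the largest 5hmC falls were smaller than the largest rises. Over all called 5hmC members, whatever their level, log2 fold changes ran from -2.03 to 2.29. The region 263 kb from PRDM1, which encodes the transcriptional repressor Blimp-1 of B-cell and myeloid maturation (chr6:106270801-106271200), had 0.564, 0.448 and 0.877 CPM in differentiated and 1.68, 2.31 and 2.29 CPM in undifferentiated libraries (log2 fold change -1.53 ± 0.26 SE, adjusted p = 1.32e-05). The others lay near CSMD1, which encodes a large membrane protein with complement control domains (chr8:5182601-5183000, -1.42), LOC401164 (chr4:190080801-190081200, -1.40), DBC1 (chr9:121522001-121522600, -1.37) and the ubiquitin ligase gene CBLB (chr3:106031001-106031400, -1.37).

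For 5mC the extremes were of similar size. The region 491 kb from MMP16, a membrane-bound metalloproteinase gene (chr8:89831001-89831400), had 2.70, 3.71 and 4.80 CPM in differentiated and 1.08, 1.05 and 1.30 CPM in undifferentiated libraries (log2 fold change 1.70 ± 0.32 SE, adjusted p = 8.24e-05). The region near KCNA4, a potassium channel gene (chr11:29746001-29746600), had 6.08, 6.19 and 6.40 CPM in differentiated and 2.83, 1.95 and 1.73 CPM in undifferentiated libraries (1.50 ± 0.24, adjusted p = 1.68e-06). The other rises lay near the actin nucleator gene COBL (chr7:52204401-52205200, 1.60), LOC148145 on chromosome 19 (chr19:29211201-29212200, 1.43), LOC285501 (chr4:180421601-180422000, 1.35) and the splicing factor gene RBFOX1 (chr16:5786601-5787400, 1.33). The last 2 of these were not called by DESeq2 (adjusted p = 0.0746 and 0.0771).

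The 5mC falls reached similar sizes. The region 231 kb from the collagen gene COL22A1 (chr8:140156801-140157200) had 0.901, 0.413 and 1.94 CPM in differentiated and 3.37, 3.91 and 3.17 CPM in undifferentiated libraries (log2 fold change -1.62 ± 0.33 SE, adjusted p = 0.000300). The region 220 kb from TLR4 (chr9:120699601-120700000), a member of the window described above, had 1.58, 0.550 and 1.14 CPM in differentiated and 3.23, 3.00 and 4.18 CPM in undifferentiated libraries (-1.62 ± 0.32, adjusted p = 0.000247). The others lay near the small nucleolar RNA host gene SNHG5 (chr6:86961601-86962000, -1.57), the mitochondrial ATP synthase subunit gene ATP5G3 (chr2:176388401-176388800, -1.51), MKRN9P (chr12:87959601-87960000, -1.49) and the cerebellin gene CBLN2 (chr18:69984001-69984400, -1.46). DESeq2 did not call ATP5G3 and MKRN9P (adjusted p = 0.0629 and 0.0596).

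**Figure D5:**
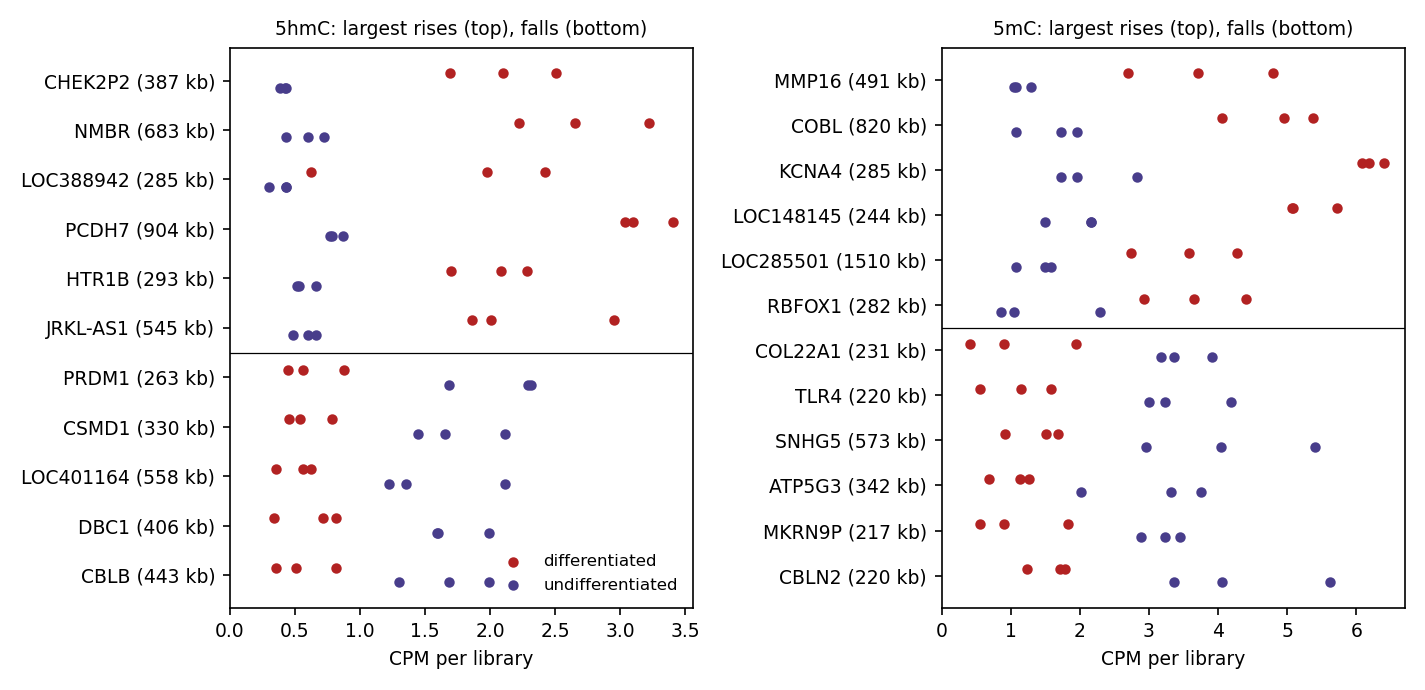
CPM in each library of gene desert regions with the largest rises and falls, 6 and 5 for 5hmC (left) and 6 and 6 for 5mC (right), labelled by nearest gene and its distance in kb. The regions were chosen for states that do not overlap, and rises reach about 3.40 CPM in differentiated libraries for 5hmC and 6.40 CPM for 5mC.

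The most heavily covered members sat beside centromeres and carried both marks. The member at chr10:42354801-42397400, 430 kb from LOC441666, had 19984, 24939 and 17424 CPM of 5hmC in differentiated and 11199, 11383 and 12279 CPM in undifferentiated libraries. The libraries of the states were apart, but the edgeR test did not call the region (log2 fold change 0.84 ± 0.52 SE, adjusted p = 0.159), while it did without differentiated replicate 2 (adjusted p = 0.0266) and with library totals (adjusted p = 0.0451), and DESeq2 called it too (2.53e-05). Its 5mC was 77097, 77554 and 79505 CPM in differentiated and 55360, 53709 and 53175 CPM in undifferentiated libraries (0.53 ± 0.04, adjusted p = 4.16e-22). A second chromosome 10 member, at chr10:42596601-42602200, was called higher for 5hmC (1.09 ± 0.31, adjusted p = 0.00342). The 5hmC call was lost without undifferentiated replicate 1 (adjusted p = 0.0658) and with the replicate number as a block in the edgeR fit (adjusted p = 0.111). The 5mC counterpart of this member, ending 200 bases further on, was also higher (0.54 ± 0.04, adjusted p = 8.16e-21).

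The next members had the same order of states. At chr4:49633201-49660200, near the lipid remodelling gene CWH43, 5hmC was 14508, 17781 and 12417 CPM in differentiated and 8465, 8394 and 9233 CPM in undifferentiated libraries (log2 fold change 0.78 ± 0.48 SE, adjusted p = 0.162, not called), and 5mC was higher by 0.61 ± 0.05 (adjusted p = 2.92e-22). At chr2:89848401-89880400, where the deposited table gives MIR4436A as the nearest gene and which as background lies within the immunoglobulin kappa locus, 5hmC was 13824, 17177 and 11922 CPM in differentiated and 7996, 7992 and 8892 CPM in undifferentiated libraries (0.79 ± 0.48, adjusted p = 0.153, not called). At chr17:25263001-25268200, near MIR4522, 5hmC had 3578, 4742 and 3007 CPM in differentiated and 2218, 2122 and 2545 CPM in undifferentiated libraries (0.72 ± 0.36, adjusted p = 0.0882, not called). These 3 were called without differentiated replicate 2 (adjusted p = 0.0322, 0.0299 and 0.0283), the library with the highest value at each, and by DESeq2, and the MIR4522 region also without differentiated replicate 3 (adjusted p = 0.0299).

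For 5mC, 2 more members of this kind were among the most heavily covered. At chr6:58775201-58780200, near the pseudogene GUSBP4, 5mC was 5268, 5238 and 5308 CPM in differentiated and 4088, 3672 and 3805 CPM in undifferentiated libraries (log2 fold change 0.45 ± 0.05 SE, adjusted p = 2.72e-12). At chr7:61967201-61971800, near ZNF733P, it was 2898, 2839 and 2811 CPM in differentiated and 2499, 2102 and 2293 CPM in undifferentiated libraries (0.31 ± 0.05, adjusted p = 9.38e-06). The ZNF733P value was 0.05 with library totals, not called.

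The widest 5hmC member lay on 8q24, a band amplified in part in HL-60. That is background knowledge, and whether the member lies inside the amplified segment was not tested. At chr8:127194601-127329400, near LINC00861, 5hmC was 491.0, 664.4 and 611.9 CPM in differentiated and 695.2, 696.2 and 686.3 CPM in undifferentiated libraries (log2 fold change -0.23 ± 0.26 SE, adjusted p = 0.448), and library totals called it lower (-0.46, adjusted p = 0.0232). The 2 listed 5mC members inside it were lower, at chr8:127283401-127329400 with 387.4, 467.6 and 488.8 CPM in differentiated and 715.7, 677.5 and 696.0 CPM in undifferentiated libraries (-0.64 ± 0.06, adjusted p = 1.56e-16) and at chr8:127242401-127283000 (-0.55 ± 0.06, adjusted p = 3.17e-11). Copy number and marking cannot be told apart there without an input library.

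The members farthest from any gene lay together on the short arm of chromosome 4 between PCDH7 and ARAP2, a GTPase-activating protein gene. The 5hmC regions 2443 and 2442 kb from ARAP2 were higher: chr4:33624401-33624800, with 1.35, 1.07 and 1.44 CPM in differentiated and 0.814, 0.675 and 0.664 CPM in undifferentiated libraries (log2 fold change 0.85 ± 0.27 SE, adjusted p = 0.00889), and chr4:33625201-33625800 (0.82 ± 0.23, adjusted p = 0.00326). Another 5hmC region, on the PCDH7 side at chr4:33588401-33588800, was lower, with 0.958, 0.716 and 0.720 CPM in differentiated and 1.52, 1.35 and 1.63 CPM in undifferentiated libraries (-0.91 ± 0.27, adjusted p = 0.00455). Without differentiated replicate 3, the first of these and the PCDH7-side region were not called (adjusted p = 0.0992 and 0.0543), nor were they by DESeq2 (0.0717 and 0.0520). Of the 3 farthest 5mC members 1 was lower (chr4:33408801-33409200, -0.70 ± 0.24, adjusted p = 0.0346), and it was not called without differentiated replicate 1 or 3 or undifferentiated replicate 2 or 3, nor by DESeq2.

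Both marks were listed at a part of the members, and where both were called they nearly always went the same way. A listed 5mC member overlapped 2863 5hmC members (10.1%) by at least 1 base, and a 5hmC member overlapped 2801 5mC members (55.4%), in 2899 pairs. Of the 1350 pairs in which both marks were called, both were higher in 930 and both lower in 394. In 8 pairs 5hmC was higher and 5mC lower, and in 18 the reverse. Pairs outside gene deserts were not counted, so whether this agreement is particular to deserts was not tested. The 5hmC of pairs with higher 5mC had a median log2 fold change of 0.62, and that of pairs with lower 5mC had a median of -0.46. Both antibodies were used on the same DNA preparations, so the 2 marks are not independent samples.

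The 8 pairs with higher 5hmC and lower 5mC included 4 that can be named by the sum of both changes. Near MIR4300 (chr11:80781401-80782400), 5hmC was 1.41, 1.79 and 1.57 CPM in differentiated and 0.895, 0.916 and 1.03 CPM in undifferentiated libraries (log2 fold change 0.74 ± 0.25 SE, adjusted p = 0.0131). The 5mC region there (chr11:80781401-80782000) had 2.48, 2.34 and 2.86 CPM in differentiated and 5.12, 5.26 and 5.62 CPM in undifferentiated libraries (-1.05 ± 0.23, adjusted p = 0.00103), so for each mark the libraries of one state lay outside the range of the other, in opposite directions. The 5hmC call was lost with library totals (0.53, adjusted p = 0.0787) and without differentiated replicate 3 or undifferentiated replicate 1, and DESeq2 called neither mark (adjusted p = 0.0797 for 5hmC and 0.0570 for 5mC). Near MIR4522 (chr17:25277801-25280800) 5hmC rose by 0.78 ± 0.17 (adjusted p = 0.000292) while the 5mC region inside it had -0.80 ± 0.21 (adjusted p = 0.00485), a call that was lost without undifferentiated replicate 2 (adjusted p = 0.0578) and with DESeq2 (0.121). The pairs near ZWINT, a kinetochore protein gene, and LOC100129138 had adjusted p-values of 0.0112 to 0.0421 and each of their 4 calls was lost under at least 4 of the 10 alternatives.

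The members were also grouped by 7 lists of nearest genes, whose counts stand against 37.9% higher and 15.2% lower over all tested 5hmC members and 52.2% and 19.7% over all 5mC members; with library totals 47.9% of the called 5hmC members were higher. Each of the 7 lists held a larger share of the 5hmC members than of all listed 5hmC regions. The shares were 4.24% against 0.732% for cadherins, 5.00% against 1.40% for other neuronal adhesion genes and 6.06% against 2.04% for microRNAs. They were 13.7% against 7.13% for long noncoding RNAs, 0.612% against 0.418% for blood cell regulators and 0.499% against 0.427% for olfactory receptors. Developmental transcription factor genes were the nearest gene of 1173 5hmC members (4.15% of members, against 1.48% of all listed regions), at 54 of the 109 listed genes. Of these, 515 (43.9%) were higher and 148 (12.6%) lower, with a median log2 fold change of 0.38 (0.14 over all members), and for 5mC 147 of 240 (61.3%) were higher and 38 (15.8%) lower. Cadherin and protocadherin genes, which encode cell adhesion molecules, had 1199 5hmC members, 438 (36.5%) higher and 155 (12.9%) lower (median 0.05), and 227 5mC members, 126 (55.5%) higher and 30 (13.2%) lower. Other neuronal adhesion and synapse genes had 1414 5hmC members, 464 (32.8%) higher and 216 (15.3%) lower, with a median of -0.06, and 259 5mC members, 139 (53.7%) higher and 42 (16.2%) lower.

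The remaining groups were smaller or broader. Genes of blood cell regulators were the nearest gene of 173 5hmC members, 72 (41.6%) higher and 27 (15.6%) lower (median log2 fold change 0.35), and of 31 5mC members, 16 (51.6%) higher and 8 (25.8%) lower. MicroRNA genes had 1713 5hmC members, 716 (41.8%) higher and 256 (14.9%) lower (median 0.25), and long noncoding RNA genes 3859, 1499 (38.8%) higher and 570 (14.8%) lower (median 0.13). Their 5mC members were 138 (48.6%) higher and 63 (22.2%) lower of 284, and 445 (57.9%) higher and 111 (14.5%) lower of 768. Olfactory receptor genes had 141 5hmC members, 45 (31.9%) higher and 23 (16.3%) lower, a smaller higher share than over all members, and 26 5mC members, 18 (69.2%) higher and 4 (15.4%) lower.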

How the data were processed

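MeDIP and hMeDIP libraries of 3 differentiated and 3 undifferentiated HL-60 replicates were compared per mark. The submitters' processing notes name BWA, SAMtools 0.1.18, bedtools 2.17.0, SICER 1.1, edgeR 2.11 and GRCh37 (hg19) without roles. The authors deposited unnormalized read counts per region, on a 200-base grid, with nearest gene, gene distance and CpG island distance and with their edgeR log2 fold change (undifferentiated over differentiated, by the counts) and log2 CPM, which were not used. The sources used here do not say whether regions were called on pooled libraries. The authors' deposited p-values served only to size the 5mC list: the largest p and adjusted p imply 328588 tests, over which 5mC p-values were adjusted, which corrects their number and not the selection.

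Counts were fitted over each whole table with edgeR 4.0.16 (R 4.3.3; filterByExpr, TMM, common trend of dispersion, quasi-likelihood F test, Benjamini-Hochberg 0.05), log2 fold change being differentiated over undifferentiated. 1 Mb windows and chromosomes were fitted as sums of desert and of other counts, with the region table's scaling. The script was tested on simulated data. Alternatives were scaling by totals, TMM on the top 25% of regions, a replicate block, no filter, DESeq2 1.42.0 and leaving out each library. The 18 5hmC regions with empty cells were left out, and 4 5hmC members carry a gene name turned into a date. Regions were named by rule: the 6 largest rises and falls among called members with no overlap of states and at least 1 (5hmC) or 2 (5mC) CPM, the 5 highest in CPM per kb, the 3 widest, the 3 farthest from a gene, those at the limit, 1 Mb windows with at least 10 (5hmC) or 3 (5mC) members, and pairs with opposite calls. Members, lists and rules were chosen with earlier results of these data known. PCR duplicates were not marked in the files, so counts are reads and not molecules. One named region and one named window are not reported here.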

Additional observations from a re-analysis of the deposited data

How the results depend on the processing

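No named gene desert region changed direction under the alternatives tried on single regions. The named regions just outside the gene distance limit were not followed through the alternatives. Among the 550 values that the alternatives gave for single regions, 52 lost their call and 12 gained one. With library totals, 5hmC members were 7164 higher and 7800 lower, 5hmC windows 274 higher and 192 lower, and 14 chromosome sums were higher; 5mC members were 392 higher and 1435 lower and 5mC windows 306 higher and 208 lower. TMM on strong regions gave 7406 higher and 8033 lower 5hmC members, 278 higher and 190 lower 5hmC windows and 7 higher chromosome sums, and 324 higher and 1434 lower 5mC members with 265 higher and 215 lower windows. DESeq2 called 6601 5hmC members higher and 810 lower, and 260 5mC members higher and 49 lower, while edgeR called 10719, 4301, 2639 and 998. Leaving out 1 library gave 7803 to 10612 higher and 1917 to 4713 lower 5hmC members (1917 without differentiated replicate 3, 2343 without undifferentiated replicate 1, 2686 without differentiated replicate 1), 583 to 712 higher and 16 to 54 lower 5hmC windows, and 1655 to 1798 higher and 506 to 644 lower 5mC members, every 5mC library lowering the lower count by over 1.5 times. The cause was not tested. Deviations of same-numbered libraries from the means of their states had correlations of -0.117 to -0.00056 for 5hmC and -0.0099 to 0.0116 for 5mC. Such values cannot show whether same-numbered samples were handled as pairs. With the replicate block in edgeR, 9781 5hmC members were higher and 3390 lower, and 2614 and 987 5mC members. The 5hmC calls at chr10:42596601-42602200 (adjusted p = 0.111) and near LOC100129138 (adjusted p = 0.0531) were lost with the block. The median mean count of a member, 33.0 for 5hmC and 38.2 for 5mC, bounds how precise a single region can be.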

Other observations

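The same distance limits applied to the X chromosome, which the rule leaves out, gave 511 5hmC regions, of which 275 (53.8%) were higher and 41 (8.02%) lower in differentiated cells, with a median log2 fold change of 0.56. The listed 5mC table held 90 such regions, 62 higher and 6 lower, with a median of 0.64. On the autosomes 37.9% of the 5hmC and 52.2% of the 5mC desert members were higher.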
